A study of Mus musculus with 12 samples.

Results

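Ribosome biogenesis factors are the proteins that build ribosomes without being part of the finished particle. A set of 47 mouse genes of this kind was described in mouse embryonic fibroblasts cultured with or without oxygen limitation. The rule names the genes by function and uses none of their values, but the set was drawn up with earlier results of these data known. For each gene the probe set with the highest mean signal over the arrays was used, provided that this mean was at least 100. This gave 46 measured genes of 47, among 18903 probe sets tested and 10059 genes with a tested probe set of their own. The single probe set listed for Mrto4 carries the names of 3 genes and was not used.

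RNA came from 6 lines of primary fibroblasts of e14.5 embryos, with 1 Affymetrix Mouse430_2 array per culture and 12 arrays in all. Every control line had 1 floxed allele, in a gene for a histone acetyltransferase: Crebbp (encoding CBP) in flox1, and Ep300 (encoding p300) in flox2_1 and flox2_2. In each triCH1 line the CH1 domain was deleted from 3 of the 4 alleles of Crebbp and Ep300, and the remaining allele was floxed (Crebbp in triCH1flox1, Ep300 in triCH1flox2_1 and triCH1flox2_2). CBP and p300 bind the hypoxia-inducible factor HIF-1α through this CH1 domain. All lines, the controls included, received adenovirus with Cre recombinase at passage 3 and were then expanded at least 100-fold. The labels do not say how completely the floxed allele was recombined, so it is not known whether triCH1 and control lines had lost it in all cells. Each line was held for 6 h in medium equilibrated at 21% O2 (normoxia) or 0.1% O2 (hypoxia), with 5% CO2 at 37 °C, which gave 4 groups of 3 arrays. The labels do not say that lines with the same genotype came from separate embryos, so p-values measure the spread between these lines.

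Ribosome assembly starts in the nucleolus, where RNA polymerase I transcribes a long precursor of the ribosomal RNAs. Small nucleolar ribonucleoproteins (snoRNPs) modify this precursor: box C/D particles guide methylation of ribose, and box H/ACA particles guide conversion of uridine to pseudouridine. The U3 box C/D particle and the small-subunit processome cut out the small-subunit RNA, and a separate series of pre-60S factors matures the large subunit. Ribosomal proteins are the structural parts and are counted apart here. Many biogenesis genes are known targets of the transcription factor MYC, which binds the DNA word CACGTG, called an E-box. In many cell types the making of ribosomes is reduced when energy or oxygen is short.

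Promoter sequences are shown for this E-box because the genes are commonly grouped as MYC targets. RefSeq promoters (GRCm38.p6, 250 bases before to 50 bases after each gene's start) were matched by symbol for 42 of the 47 genes, in 47 windows of 300 bases. Bop1, Fbl, Npm1, Rrp12 and Rrs1 were not matched. CACGTG reads the same on both strands, and it stood in 11 of the 47 windows (23.4%), against 7.15% of all 32851 RefSeq promoters. By gene, 11 of 42 (26.2%) held it, against 8.09% of all genes with a promoter. The shorter word ACGTG, the core of the HIF binding sequence, lies inside CACGTG. Searched on both strands it stood in 36.2% of the windows, against 19.6% of all promoters, but outside CACGTG it stood in 14.9%, against 13.6%. These matches describe the letters only, and no binding was measured. The 11 stretches follow with CACGTG in capitals, each 30 bases on the strand of its gene and read 5′ to 3′. Those of Imp4, Nop2 and Utp18 lie before the start of the gene, and the other 8 after it.
Grwd1 (chr7:45830740-45830769, − strand): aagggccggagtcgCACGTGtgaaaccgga
Imp4 (chr1:34439696-34439725, + strand): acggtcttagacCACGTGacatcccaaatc
Ltv1 (chr10:13193092-13193121, − strand): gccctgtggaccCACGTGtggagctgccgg
Mybbp1a (chr11:72441347-72441376, + strand): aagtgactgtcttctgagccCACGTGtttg
Nop2 (chr6:125131811-125131840, + strand): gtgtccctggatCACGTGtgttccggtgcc
Pes1 (chr11:3963965-3963994, + strand): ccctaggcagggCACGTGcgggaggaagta
Pno1 (chr11:17211540-17211569, − strand): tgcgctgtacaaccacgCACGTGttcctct
Tsr1 (chr11:74898092-74898121, + strand): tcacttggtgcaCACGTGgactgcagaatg
Utp18 (chr11:93885769-93885798, − strand): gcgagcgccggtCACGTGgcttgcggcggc
Utp20 (chr10:88826765-88826794, − strand): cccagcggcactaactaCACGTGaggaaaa
Wdr43 (chr17:71616220-71616249, + strand): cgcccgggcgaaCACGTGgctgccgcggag

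The promoter of Rcl1, which had the lowest mean response among the 46 genes below, held neither word in the 300 bases searched. The 250 bases before its start (chr19:29101125-29101374, + strand) are given so that the windows with an E-box can be set beside it.
Rcl1: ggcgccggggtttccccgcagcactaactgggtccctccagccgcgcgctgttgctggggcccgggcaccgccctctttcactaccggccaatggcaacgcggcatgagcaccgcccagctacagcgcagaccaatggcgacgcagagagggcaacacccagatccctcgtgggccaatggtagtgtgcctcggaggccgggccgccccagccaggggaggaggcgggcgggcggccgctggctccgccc

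Signals below are the authors' scaled intensities. The mean signal of the 46 genes ran from 515 to 21881, well above the filter. Between probe sets these intensities depend on the probes, so levels of different genes are not compared. Log2 differences are of log2(signal + 20), with the standard error (SE) from limma, and calls rest on p-values adjusted by Benjamini-Hochberg over all 18903 probe sets, with a threshold of 0.05. The Gapdh 3′/5′ ratio lay between 0.737 and 0.794 in normoxia and between 0.782 and 0.812 in hypoxia. The actin ratio lay between 1.123 and 1.17 in normoxia and between 1.101 and 1.172 in hypoxia. The authors' scale factor lay between 2.572 and 4.07 in normoxia and between 3.346 and 4.282 in hypoxia. The Gapdh ratio and the scale factor were higher in hypoxia in every line but flox2_2. The part of these shifts in the responses below was not tested. Bnip3, a known HIF target used to check the treatment, rose by 4.46 ± 0.18 (SE) in control lines and 4.39 ± 0.18 in triCH1 lines on the log2 scale (limma, n = 3 lines each, adjusted p 2.12e-08 and 2.62e-08). Bnip3 was 1 of 6 HIF targets checked, all called higher in both line types by limma (background 0.799% and 0.63%). Their median response was 3.39 in control lines and 2.51 in triCH1 lines. All 6 rose less in triCH1 lines, though none passed the limma test of this difference. Egln3 differed most, with 3.58 ± 0.25 (SE) in control lines and 2.18 ± 0.25 in triCH1 lines. All 13 of the 14 listed fibroblast markers that the array names reached 100 in mean signal. That mean pools the groups: in control hypoxia Pdgfra ran from 14.7 to 111.2 and Dcn from 12.1 to 118.2.

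Most of the 46 biogenesis genes lay lower in hypoxia, in control and triCH1 lines alike, by a small amount each. Averaged over both line types, 42 of 46 log2 responses were below 0, against 55.8% of all probe sets, with a median of −0.20 against −0.03. Rcl1, Rrp9, Nol9 and Grwd1 fell, 4 genes called in the mean response, where 0.328% of all probe sets were called lower. No member was called higher (limma; background 1.42%). At an unadjusted p under 0.05, 16 were lower (background 6.52%) and 0 higher (background 4.79%). In 13 genes every one of the 6 lines was lower in hypoxia, against 7.23% of all probe sets, and in 0 genes was every line higher, against 5.14%. With each line as its own block, which pairs its normoxia and hypoxia arrays, 11 genes were called lower (background 1.26%): the 4 above with Bysl, Nolc1, Nop16, Nop2, Nop56, Rrp12 and Rrs1. In these bulk cultures fewer cells of a type and less RNA per cell cannot be told apart.

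**Figure D1:**
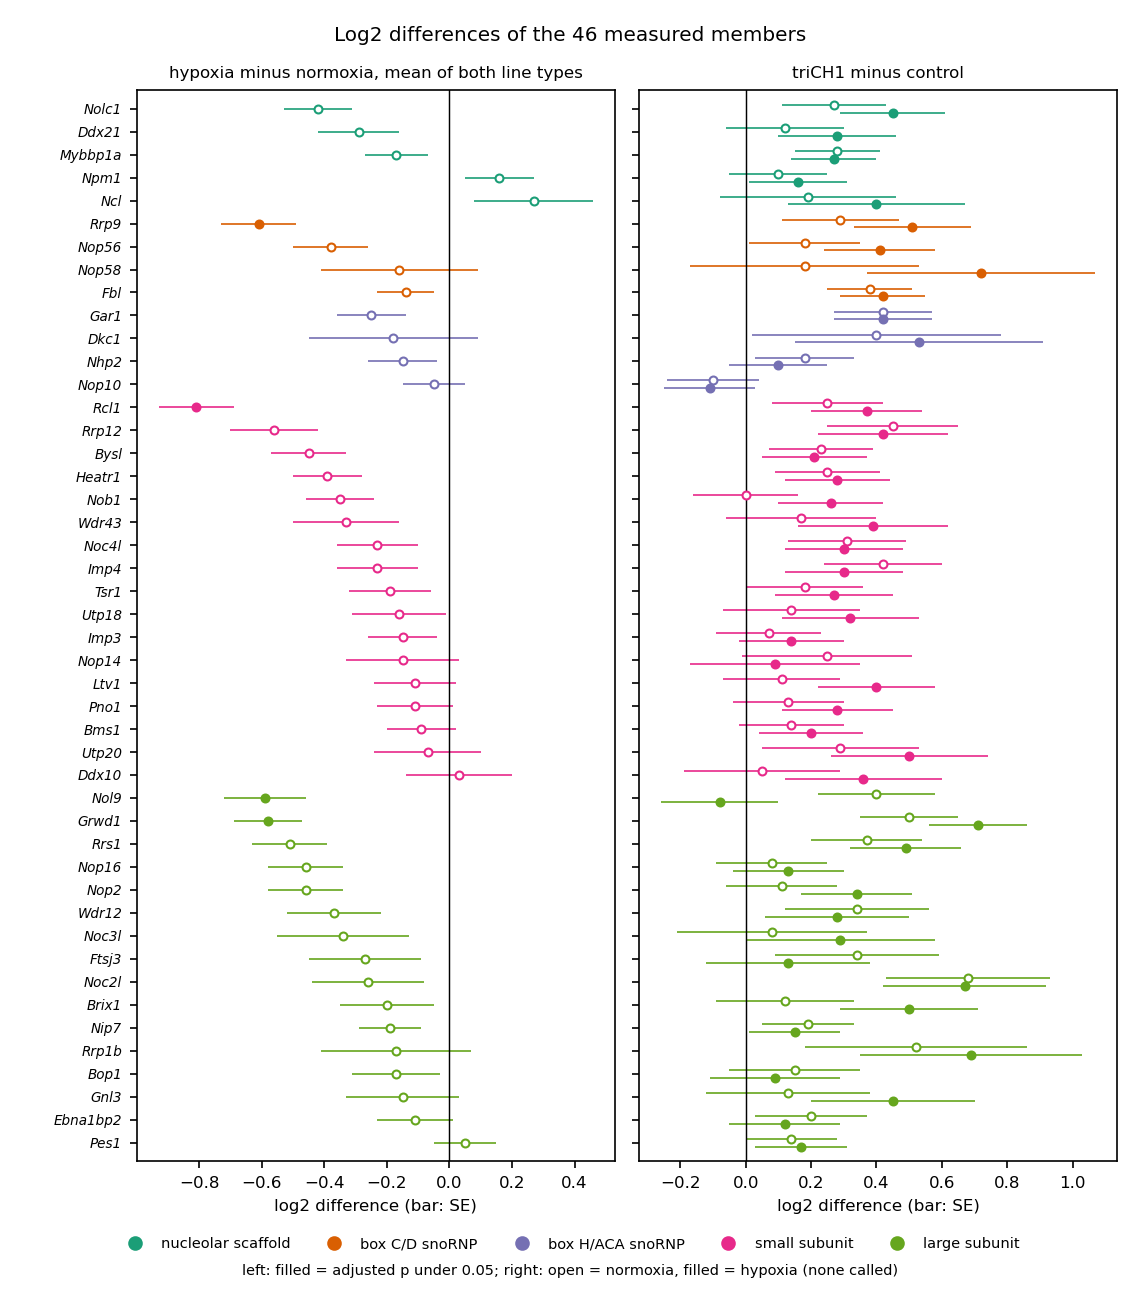
Log2 differences of the 46 measured genes, grouped by role, with points for the fitted difference and bars for its SE; the left panel is hypoxia minus normoxia averaged over both line types, and the right panel is triCH1 minus control in normoxia (open) and hypoxia (filled). On the left 42 of 46 points lie below 0 and only Rcl1, Rrp9, Nol9 and Grwd1 are filled as called; on the right most points lie above 0 and none is called.

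Within control lines 43 of 46 genes were below 0 (background 56.9%), with a median of −0.25 against −0.04 for all probe sets. Rcl1 alone was called lower (background 0.0317%) and 0 genes higher (background 0.799%), while at an unadjusted p under 0.05 limma gave 12 lower (background 2.99%) and 0 higher (background 2.98%). Grwd1, Rcl1 and Rrs1 were called with the line as a block (background 0.185%). Values did not overlap between normoxia and hypoxia in 15 genes, all lower in hypoxia (background 6.97% lower and 4.66% higher). Within triCH1 lines 38 of 46 were below 0 (background 53.2%), with a median of −0.21 against −0.02. No member was called there by limma (background 0.00529% lower and 0.63% higher), and 9 were lower and 0 higher at an unadjusted p under 0.05 (background 3.02% and 3.23%). Rcl1 and Nol9 were called with the line as a block (background 0.0635%). In 11 genes the triCH1 groups did not overlap, all lower (background 6.21% lower and 5.64% higher).

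Line by line the picture was uneven. The median response over the 46 genes was −0.30 in flox1, −0.32 in flox2_1 and −0.30 in flox2_2, and it was −0.15 in triCH1flox1, −0.26 in triCH1flox2_1 and −0.14 in triCH1flox2_2. Thus all 6 medians were below 0, and the control medians lay below the triCH1 medians. The number of genes below 0 was 38, 41 and 33 in these control lines (82.6%, 89.1% and 71.7%). It was 30, 42 and 30 in these triCH1 lines (65.2%, 91.3% and 65.2%). Of all probe sets, 54.3%, 54.8% and 54.3% were below 0 in these control lines and 51.2%, 52.2% and 51.7% in these triCH1 lines. The medians of all probe sets lay between −0.05 and −0.01. The difference between the responses (triCH1 minus control) had a median of 0.08, with 30 of 46 genes above 0 against 51.6% of all probe sets, and 16 below 0 against 48.4%. The sign of this difference depended on single arrays: 25 genes were below 0 without the normoxia array of triCH1flox1 (median −0.02), 10 without that of triCH1flox2_1 (median 0.15) and 6 without that of flox1 (median 0.17). None of the 46 passed the test of this difference, at an adjusted p under 0.05 or an unadjusted p under 0.05 (limma; at the latter 0.333% of all probe sets were higher and 0.36% lower). Its extremes were 0.55 ± 0.50 (SE) in Nop58 and −0.48 ± 0.26 in Nol9. The Nol9 probe set used gave −0.35 in control lines and −0.83 in triCH1 lines. Its other tested probe sets were less far apart, at −0.51, −0.79 and −0.48 in control lines and −0.73, −0.71 and −0.68 in triCH1 lines.

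**Figure D2:**
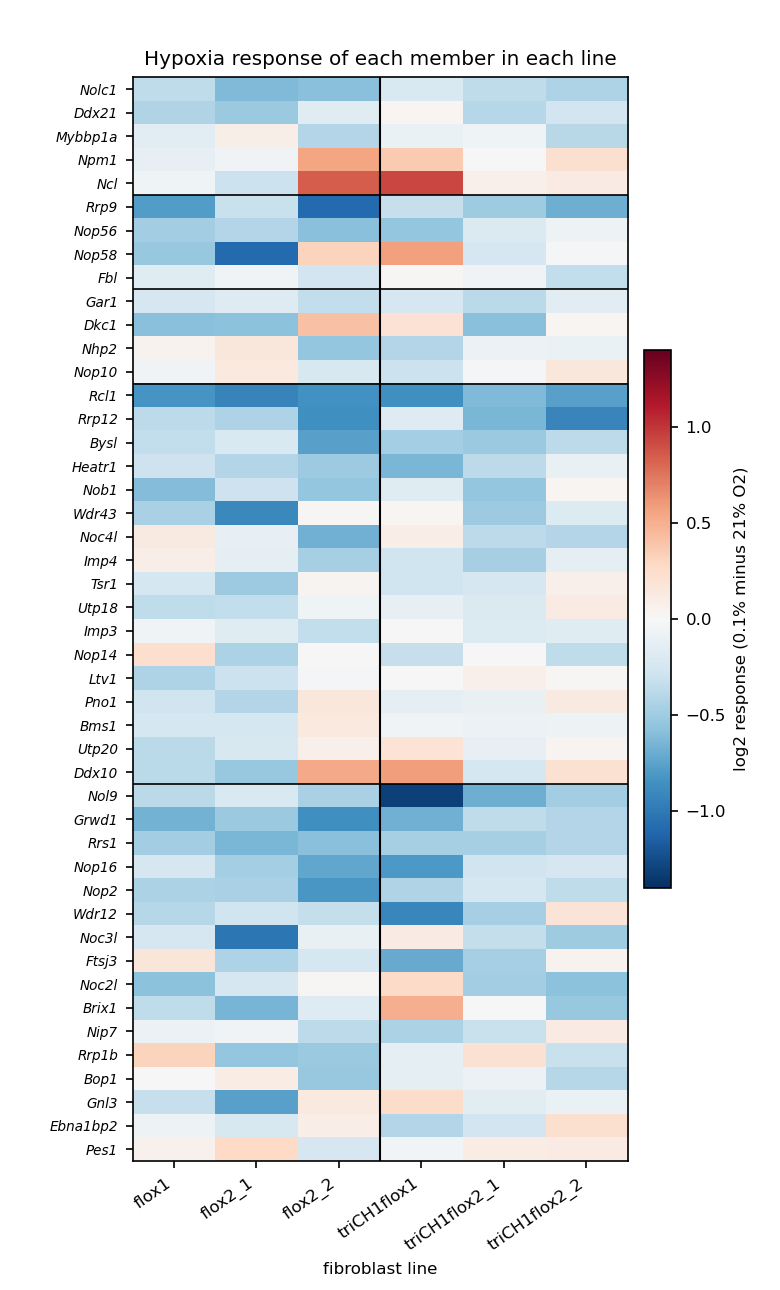
Hypoxia response (log2 signal + 20 at 0.1% O2 minus 21% O2) of each of the 46 genes in each of the 6 fibroblast lines, blue for lower and red for higher in hypoxia, in blocks from top to bottom of nucleolar scaffold, box C/D, box H/ACA, small-subunit and large-subunit genes. Rows such as Rcl1, Grwd1 and Rrs1 are blue in all 6 lines, whereas Ncl is dark red in flox2_2 (0.85) and triCH1flox1 (0.94) and near 0 or blue in the other lines.

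In the lists of signals that follow, the values of a group are those of flox2_1, flox1 and flox2_2, or of triCH1flox2_1, triCH1flox1 and triCH1flox2_2, in that order.

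Small-subunit factors formed the largest group of 17 genes, of which 16 had a mean response below 0, with a median of −0.19 and 1 called. Rcl1, a cyclase-like protein needed for early cleavage on the way to 18S rRNA, was that gene. Its signal was 1150.1, 1218 and 1494 in control normoxia and 591, 677 and 818 in control hypoxia. In triCH1 lines it was 1555, 1442 and 1574 in normoxia and 1002, 788 and 923 in hypoxia. All 3 hypoxia cultures of each line type lay below all 3 normoxia cultures. The mean response was −0.81 ± 0.12 (SE) (limma adjusted p 0.00179), so that the signal fell by 42.9%, with −0.87 ± 0.17 in control lines (adjusted p 0.0257) and −0.75 ± 0.17 in triCH1 lines (adjusted p 0.0935; 0.0224 with the line as a block). Every line gave a response between −0.94 and −0.62. The mean response stayed called when any array or line was left out (adjusted p up to 0.0237), but the call in control lines alone did not. It was lost without flox1 or flox2_2 in normoxia (adjusted p 0.0914 and 0.149), without flox2_1 or flox1 in hypoxia (0.183 and 0.111), without the line flox2_1, flox1 or flox2_2 (0.227, 0.298 and 0.106), and without the line triCH1flox2_1 or triCH1flox2_2 (0.057 and 0.0813).

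Rrp12, which takes part in export of both subunits, was next in this group. In control lines its signal was 471, 438 and 666 in normoxia and 345, 336 and 359 in hypoxia, and in triCH1 lines 710.4, 633 and 802 in normoxia and 448, 557 and 416 in hypoxia. Groups did not overlap in either line type. The mean response of −0.56 ± 0.14 (SE) did not pass (limma adjusted p 0.0602), and passed with the line as a block (0.0338). Bysl, a bystin-family factor of 40S assembly, had 1752, 2227 and 2369 in control normoxia, 1515, 1750.3 and 1393 in control hypoxia, 2247, 2679 and 2494 in triCH1 normoxia and 1562, 1910.1 and 1920.5 in triCH1 hypoxia. Here too the hypoxia values lay below the normoxia values within each line type. Its mean response was −0.45 ± 0.12 (limma adjusted p 0.0815; 0.0276 with the line as a block).

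Heatr1, the UTP10 component that links RNA polymerase I transcription to early cleavage, had 1452, 1319.8 and 1482 in control normoxia, 1090.5, 1074 and 1032 in control hypoxia, 1773, 1617 and 1665 in triCH1 normoxia and 1364, 1033 and 1550.4 in triCH1 hypoxia. All 6 lines were lower in hypoxia, and the mean response was −0.39 ± 0.11 (SE; limma adjusted p 0.143, and 0.0705 with the line as a block). Nob1, the endonuclease that makes the last cut of 18S rRNA, had 1401, 1661 and 1605 in control normoxia and 1139, 1081 and 1096 in control hypoxia. In triCH1 lines Nob1 was 1917, 1406 and 1398 in normoxia and 1316, 1248 and 1431 in hypoxia. The control groups were apart and the triCH1 groups overlapped, and the difference between the responses was 0.26 ± 0.23 (limma adjusted p 1.0).

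Other processome genes gave smaller and mixed values. Utp20 had 1129.6, 1026 and 942 in control normoxia, 966, 786 and 992 in control hypoxia, 1758, 886 and 1297 in triCH1 normoxia and 1613, 1016 and 1336 in triCH1 hypoxia, with 3 of 6 lines lower and a mean response of −0.07 ± 0.17 (SE). Ddx10, an RNA helicase, had 929, 847 and 663 in control normoxia, 635, 649 and 966 in control hypoxia, 1135, 585 and 877 in triCH1 normoxia and 951, 887 and 1017 in triCH1 hypoxia. Its lines split evenly, and its mean response of 0.03 ± 0.17 was the only one above 0 among small-subunit genes. The remaining 10 small-subunit genes (Wdr43, Noc4l, Imp4, Tsr1, Utp18, Imp3, Nop14, Ltv1, Pno1 and Bms1) had mean responses from −0.33 to −0.09, and none was called.

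Large-subunit factors, 16 genes, had 15 mean responses below 0, a median of −0.27 and 2 calls. Nol9, a polynucleotide kinase that acts in removal of the spacer between 5.8S and 28S rRNA, was called. Control lines gave 805, 841 and 889.6 in normoxia and 695, 643 and 644 in hypoxia, and triCH1 lines gave 1203, 1215 and 958 in normoxia and 742, 478 and 677 in hypoxia. Every line was lower in hypoxia, from −0.21 in flox2_1 to −1.31 in triCH1flox1. The mean response was −0.59 ± 0.13 (SE) (limma adjusted p 0.0336), so that the signal fell by 33.4%. Its 3 other tested probe sets, of 4 others, gave −0.62, −0.75 and −0.58 (adjusted p 0.0825, 0.0347 and 0.0602). Nol9 was the least secure call, since leaving out any array or line but the normoxia array of triCH1flox2_2 or the hypoxia array of triCH1flox2_1 took the adjusted p to between 0.0524 and 0.193.

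Grwd1, a chaperone of the ribosomal protein uL3, was the other call. Its signal was 1795, 1780.2 and 2129 in control normoxia and 1241, 1118 and 1160.5 in control hypoxia. In triCH1 lines it was 2628, 2604 and 2852 in normoxia and 2048, 1633 and 2135 in hypoxia. The 4 groups were apart in both ways: hypoxia below normoxia within each line type, and triCH1 above control within each condition. The mean response was −0.58 ± 0.11 (SE), so that the signal fell by 33.2% (limma adjusted p 0.00855; −0.68 ± 0.15 in control lines, adjusted p 0.0535 and 0.0267 with the line as a block). Its other tested probe sets gave −0.61 and −0.42 (adjusted p 0.0716 and 0.452). Without the line flox1 or flox2_2 the mean response lost its call (adjusted p 0.0644 and 0.0663), and without the hypoxia array of triCH1flox1 or that whole line the control response was called (0.0349 and 0.0391).

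Rrs1, which helps to place the 5S RNA particle in the pre-60S, had 3809, 3231 and 4035 in control normoxia, 2429, 2301 and 2698 in control hypoxia, 5112, 3909 and 5384 in triCH1 normoxia and 3706, 2825 and 4055 in triCH1 hypoxia. Its response was among the most even across lines, from −0.64 to −0.41, with a mean of −0.51 ± 0.12 (SE; limma adjusted p 0.0531, and 0.00316 with the line as a block). Without the normoxia array of triCH1flox1 or that whole line it was called (0.0232 and 0.0373). Nop2, a methyltransferase of 28S rRNA, had 1519.6, 1801 and 2282 in control normoxia, 1104, 1323 and 1292 in control hypoxia, 1803, 2024 and 2159.6 in triCH1 normoxia and 1508, 1510.4 and 1682 in triCH1 hypoxia. Groups did not overlap within either line type, and the mean response was −0.46 ± 0.12 (limma adjusted p 0.0834; 0.0228 with the line as a block). The pre-60S factor Nop16 also had a mean response of −0.46 ± 0.12 and was lower in all 6 lines (limma adjusted p 0.0749; 0.0269 with the line as a block).

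Pes1, Bop1 and Wdr12 form the PeBoW complex of the pre-60S, and their values were unlike one another. Pes1 had 1862, 2159 and 2270.4 in control normoxia, 2264, 2250.1 and 1918 in control hypoxia, 2347, 2476 and 2124 in triCH1 normoxia and 2517, 2401 and 2318 in triCH1 hypoxia. Bop1 had 1558, 1708 and 2497 in control normoxia, 1672, 1717 and 1724 in control hypoxia, 1661, 2217 and 2457 in triCH1 normoxia and 1568, 2028 and 1862 in triCH1 hypoxia. Normoxia and hypoxia overlapped in both genes and both line types. The mean responses were 0.05 ± 0.10 (SE) in Pes1, −0.17 ± 0.14 in Bop1 and −0.37 ± 0.15 in Wdr12, and none passed (limma adjusted p 0.925, 0.731 and 0.379). The second probe set of Pes1 gave −0.13 and that of Wdr12 gave 0.41, each opposite in sign to the one used. The remaining large-subunit genes (Noc3l, Ftsj3, Noc2l, Brix1, Nip7, Rrp1b, Gnl3 and Ebna1bp2) had mean responses from −0.34 to −0.11, and none was called.

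All 4 box C/D genes had mean responses below 0, with a median of −0.27 and 1 called. Rrp9, the protein specific to the U3 particle, was that gene. Signals were 1072, 1222 and 1425 in control normoxia, 864, 704 and 658 in control hypoxia, 1528, 1270.4 and 1764 in triCH1 normoxia and 1072, 1016 and 1092 in triCH1 hypoxia. Each hypoxia group lay below its normoxia group. The mean response was −0.61 ± 0.12 (SE) (limma adjusted p 0.0193), so that the signal fell by 34.6%. The call was lost in 9 of the 18 omissions: the arrays of flox1 and flox2_2 in normoxia (adjusted p 0.0556 and 0.0622) and in hypoxia (0.0538 and 0.0571), the normoxia array of triCH1flox2_2 (0.0588), and the lines flox1, flox2_2, triCH1flox2_1 and triCH1flox2_2 (0.136, 0.152, 0.101 and 0.116).

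The core proteins of the box C/D particle gave values closer to 0. Nop56 had 4548, 4814 and 5663 in control normoxia, 3411, 3417 and 3787 in control hypoxia, 6466, 5191 and 5398 in triCH1 normoxia and 5622, 3572 and 5147 in triCH1 hypoxia. It was lower in all 6 lines, with a mean response of −0.38 ± 0.12 (SE; limma adjusted p 0.175, and 0.0299 with the line as a block). Its partner Nop58 had 2271, 1484 and 1423 in control normoxia, 1057, 1022 and 1772 in control hypoxia, 2601, 1007 and 2654 in triCH1 normoxia and 2221, 1509 and 2622 in triCH1 hypoxia. The lines of Nop58 ranged from −1.09 in flox2_1 to 0.57 in triCH1flox1. Fbl, the methyltransferase fibrillarin, had 6133, 6123 and 7726 in control normoxia, 5944, 5449 and 6418 in control hypoxia, 8214, 8016 and 9733 in triCH1 normoxia and 7919, 8145 and 7662 in triCH1 hypoxia. Its hypoxia and normoxia values overlapped, and its mean response was −0.14 ± 0.09 (limma adjusted p 0.635).

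The 4 box H/ACA genes were all below 0 in the mean response, with a median of −0.17 and none called. Dkc1, the pseudouridine synthase dyskerin, had 1899.6, 1085 and 1367 in control normoxia, 1269, 716 and 1827 in control hypoxia, 2577, 1081 and 2353 in triCH1 normoxia and 1705, 1245 and 2411 in triCH1 hypoxia. Dkc1 varied more between lines than between conditions, with 3 of 6 lines lower. Gar1 was lower in all 6 lines, with a mean response of −0.25 ± 0.11 (SE; limma adjusted p 0.403). The values for Nhp2 and Nop10 were −0.15 ± 0.11 and −0.05 ± 0.10.

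Nucleolar scaffold proteins were the group with the most mixed signs, 3 of 5 below 0. Nolc1, a chaperone of snoRNPs, was lower in all 6 lines, with a mean response of −0.42 ± 0.11 (SE; limma adjusted p 0.095, and 0.0267 with the line as a block). Npm1, nucleophosmin, had 20335, 19685 and 19321 in control normoxia, 19663, 18284 and 28226 in control hypoxia, 22273, 18163 and 23568 in triCH1 normoxia and 22253, 23434 and 27369 in triCH1 hypoxia. Among its control values the hypoxia array of flox2_2 was far above the other 5. Ncl, nucleolin, had 12592, 9145 and 8272 in control normoxia, 10240.5, 8775 and 14975 in control hypoxia, 14732, 6804 and 14156 in triCH1 normoxia and 15482, 13033 and 15232 in triCH1 hypoxia. In Ncl the highest responses were those of flox2_2 and triCH1flox1. The mean responses were 0.16 ± 0.11 in Npm1 and 0.27 ± 0.19 in Ncl, and neither passed (limma adjusted p 0.65 and 0.673). In control lines both turned negative without the hypoxia array of flox2_2 (−0.06 and −0.05). Ddx21 and Mybbp1a had −0.29 ± 0.13 and −0.17 ± 0.10.

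**Figure D3:**
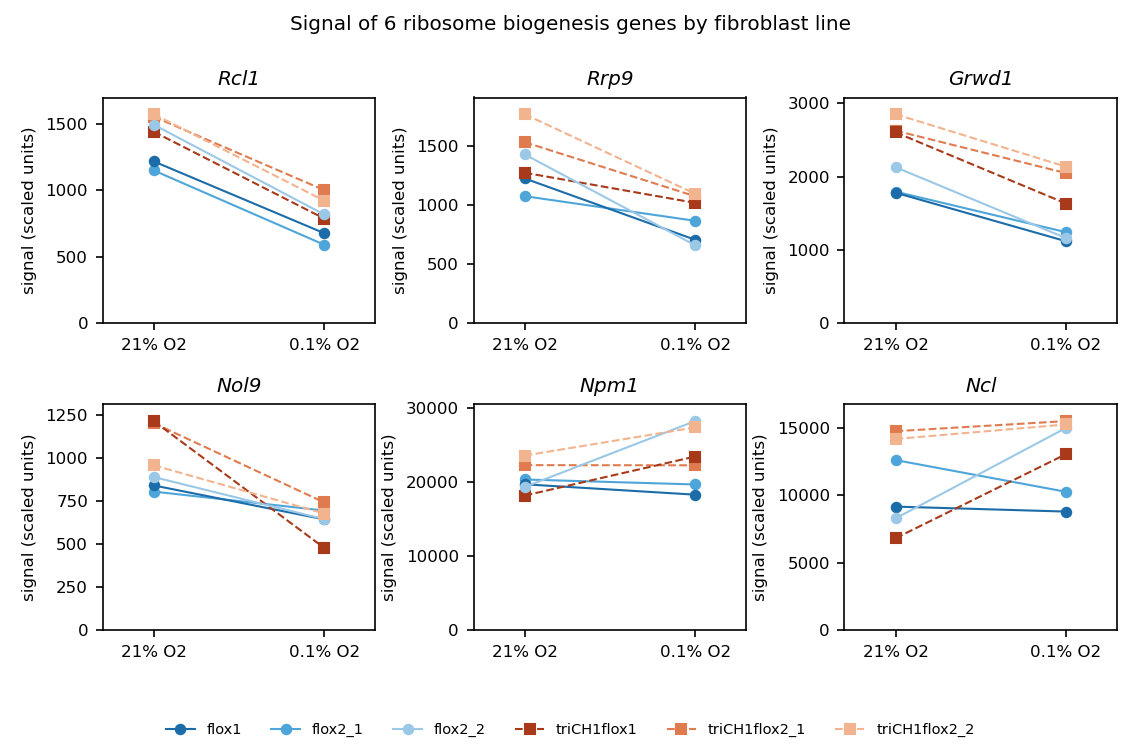
Signal in the authors' scaled units (vertical axis, from 0) at 21% and 0.1% O2 for Rcl1, Rrp9, Grwd1, Nol9, Npm1 and Ncl, with 1 point per array and a line joining the arrays of each fibroblast line (circles for control, squares for triCH1). All 6 lines slope down in the first 4 genes, and the slopes of Npm1 and Ncl differ in sign between lines.

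Across the 12 arrays the 46 genes tended to vary together. The median Pearson r of the 1035 gene pairs was 0.55, and 0.27 after the group means were removed, with 937 pairs above 0 before removal; these are descriptions over arrays that share lines and conditions. By this measure the genes most like Rcl1 were Nop2 (0.91), Nop16 (0.89) and Rrs1 (0.89). Those most like Grwd1 were Rrs1 (0.95), Rrp9 (0.93) and Heatr1 (0.92). Ncl was instead most like Ddx10 (0.89), Nop58 (0.83) and Npm1 (0.83). The lowest median r with the other members was −0.26 in Nop10, followed by 0.09 in Npm1. After the group means were removed Npm1 had 0.24 and Nop10 −0.29, and the lowest was −0.37 in Bysl. Other probe sets of the members gave a check on the choice: 42 further tested probe sets of 29 genes had the same sign of mean response in 37 cases and the opposite in 5. These 5 belonged to Ncl, Imp4, Pes1 and Wdr12. For triCH1 against control, described below, the sign was the same in 36 cases and opposite in 6 in normoxia. In hypoxia it was the same in 37 and opposite in 5. For Imp4 the probe set used gave 0.42 in normoxia and 0.30 in hypoxia, and the others gave −0.78 and 1.27, then −0.69 and 0.69. For Nol9 in normoxia the probe set used gave 0.40, and the other tested ones gave 0.37, −0.05 and 0.31. For Nol9 in hypoxia the probe set used gave −0.08, and the other tested ones gave 0.16, 0.03 and 0.10, opposite in sign.

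The 11 genes with CACGTG in the promoter window can be set beside those without it, as a description. Their median mean response was −0.17, with 1 called (Grwd1), and that of the 30 matched and measured genes without it was −0.24, with 3 called. Myc itself had a mean response of −0.11 ± 0.10 (SE; limma adjusted p 0.773), with group means of 2541 and 2413 in control normoxia and hypoxia and 2633 and 2380 in triCH1. Mxi1, which encodes a repressor that competes for the E-box partner MAX, rose by 2.21 ± 0.21 in control lines and 1.67 ± 0.21 in triCH1 lines (limma adjusted p 3.04e-05 and 0.000591). The other 9 tested genes of the MYC network were not called in any of the 3 hypoxia contrasts.

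Related biogenesis and polymerase genes outside the set also lay mostly below 0 in hypoxia, and ribosomal proteins did not. Of 80 other tested biogenesis genes, 69 had a mean response below 0 (background 55.8%), with a median of −0.21. Of these genes 2 were called, both lower (background 0.328%). Shq1, an assembly factor of box H/ACA particles, fell by 0.86 ± 0.19 (SE), and Urb1, a pre-60S factor, fell by 0.72 ± 0.17 (limma adjusted p 0.035 and 0.0493). Of 12 tested genes of RNA polymerase I transcription, 10 were below 0, with a median of −0.25. Polr1b, the second largest subunit of the polymerase, fell by 0.94 ± 0.15 in control lines (adjusted p 0.00508), had −0.54 ± 0.15 in triCH1 lines (adjusted p 0.274), and fell by 0.74 ± 0.11 in the mean (adjusted p 0.00136). By contrast 36 of 43 ribosomal protein genes were above 0, with a median of 0.10; none was called by limma and 0 had an unadjusted p under 0.05. The lines flox2_1 and triCH1flox2_2 carried this, each with 41 of 43 genes above 0 and medians of 0.29 and 0.18. The other lines had 30 (flox1), 21 (flox2_2), 23 (triCH1flox1) and 28 (triCH1flox2_1) above 0, with medians of 0.04, −0.00, 0.00 and 0.03. The normoxia array of flox2_1 also stood apart, with a median deviation of −0.31 for this list. Of 15 proliferation genes 9 were below 0 in the mean response, with a median of −0.08 and none called.

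The second comparison asks how the members' levels differed between triCH1 and control lines at the same oxygen. In normoxia 45 of 46 genes were higher in sign in triCH1 lines (background 52.6%), with a median of 0.19 against 0.02 for all probe sets. The median was 0.31 without triCH1flox1. Genes below 0 numbered 9 instead of 1 without triCH1flox2_1, 4 without flox1 or triCH1flox2_2, 3 without flox2_1 and 2 without flox2_2. In hypoxia 44 of 46 were above 0 (background 55.5%), with a median of 0.30 against 0.03, and 1 gene instead of 2 was below 0 without triCH1flox1. No gene was called in either condition (limma; background 0.0% higher and 0.00529% lower in normoxia, and 0.00529% higher and 0.0688% lower in hypoxia). At an unadjusted p under 0.05, 8 were higher in normoxia (background 3.73%) and 11 in hypoxia (background 4.16%), and 0 were lower in both (background 3.83% and 3.81%). The triCH1 and control values did not overlap in 7 genes in normoxia (Fbl, Gar1, Grwd1, Heatr1, Imp4, Noc2l and Nol9; background 6.18%) and in 17 in hypoxia (background 7.1%), triCH1 higher in all of them (background for lower 4.64% and 6.05%). Each comparison, in normoxia as in hypoxia, shares its arrays with both responses above, so these values are not independent of them.

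Grwd1 had the smallest adjusted p here, with 0.50 ± 0.15 (SE) in normoxia and 0.71 ± 0.15 in hypoxia (limma adjusted p 0.377 and 0.155). It was called in hypoxia with the floxed gene as a covariate (limma adjusted p 0.0315, background 0.138%). Without the line triCH1flox1 it was called too (limma adjusted p 0.0246), where the background rose from 0.00529% to 0.497%. Noc2l, a pre-60S factor, had 629, 578 and 789.6 in control normoxia, 531, 383 and 801 in control hypoxia, 1182, 790.4 and 1292 in triCH1 normoxia and 834, 956 and 862 in triCH1 hypoxia. The triCH1 values did not overlap the controls in either condition, with differences of 0.68 ± 0.25 and 0.67 ± 0.25 (limma adjusted p 0.544 and 0.519). Rrp1b, a nucleolar large-subunit factor, was uneven between lines: its signals were 969, 635 and 864 in control normoxia, 658, 792 and 598 in control hypoxia, 1706, 790.3 and 1182 in triCH1 normoxia and 1980.5, 716 and 948 in triCH1 hypoxia. The values of triCH1flox2_1 were the highest and those of triCH1flox1 lay among the controls. Its differences were 0.52 ± 0.34 and 0.69 ± 0.34 (limma adjusted p 0.846 and 0.642).

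Nop58 had the largest difference in hypoxia, 0.72 ± 0.35 (SE), and Fbl had 0.38 ± 0.13 in normoxia and 0.42 ± 0.13 in hypoxia (limma adjusted p 0.639, 0.485 and 0.41). At the other end Nop10 was below 0 in both conditions, −0.10 ± 0.14 and −0.11 ± 0.14. Its signals were 7631, 9518 and 10095 in control normoxia, 8402, 9198 and 8641 in control hypoxia, 7743, 9906 and 7792 in triCH1 normoxia and 7620.4, 8022 and 8719.5 in triCH1 hypoxia, and all groups overlapped. Nol9 was higher in sign in triCH1 normoxia, 0.40 ± 0.18, and near 0 in hypoxia, −0.08 ± 0.18 (limma adjusted p 0.657 and 0.929).

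Other gene lists differed between the line types too. All 15 tested proliferation genes were above 0 in triCH1 lines in both conditions (background 52.6% and 55.5%), with a median of 0.57 in each. None was called by limma, and 9 and 6 were higher at an unadjusted p under 0.05 (background 3.73% and 4.16%). By array, the median deviation of the 46 members from their means over all arrays was 0.08, −0.12 and 0.10 in control normoxia and 0.39, 0.10 and 0.31 in triCH1 normoxia. In hypoxia it was −0.26, −0.40 and −0.17 in control lines and 0.11, −0.13 and 0.10 in triCH1 lines. The same deviation of the proliferation genes was −0.37, −0.44 and −0.05, then 0.59, −0.04 and 0.55 in normoxia, and −0.31, −0.48 and −0.20, then 0.56, −0.07 and 0.57 in hypoxia. In both lists the triCH1 lines with floxed Ep300 were high, and the line triCH1flox1 was lower than those. The part of proliferation in the members' difference was not tested. Summed endothelial marker signal was also lower in triCH1 lines, 441.0 to 895.6 in control normoxia against 256.1 to 340.8, and 276.1 to 900.9 in control hypoxia against 195.4 to 326.7. Pecam1, Cdh5, Kdr, Tie1 and Emcn, 5 of its 6 genes, had a mean below 100. Esam alone carried the sum, at 289.4 to 798.1 in control normoxia against 74.7 to 209.5, and 143.3 to 803.3 in control hypoxia against 71.6 to 189.2.

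In hypoxia the summed signal of 6 epithelial genes was higher, 5992.4 to 7607.6 in control lines against 1373.0 to 2319.8 in normoxia, and 3690.6 to 3926.2 in triCH1 lines against 1347.0 to 2488.6. Krt19 carried nearly all of it, at 5573.2 to 7280.9 against 967.9 to 1810.0 in control lines and 3019.7 to 3643.2 against 989.9 to 1588.0 in triCH1 lines. Cdh1, Krt8 and Cldn4 were below a mean of 100. Epcam ranged from 106.0 to 163.8 in control normoxia and from 109.7 to 173.6 in control hypoxia. In triCH1 lines Epcam was lower in hypoxia by median, at 73.4 to 143.2 against 141.5 to 289.0. Krt18 ranged from 113.7 to 158.0 in control normoxia and from 109.2 to 172.1 in control hypoxia. In triCH1 lines Krt18 ranged from 118.7 to 440.8 in normoxia and from 102.8 to 353.2 in hypoxia.

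**Figure D4:**
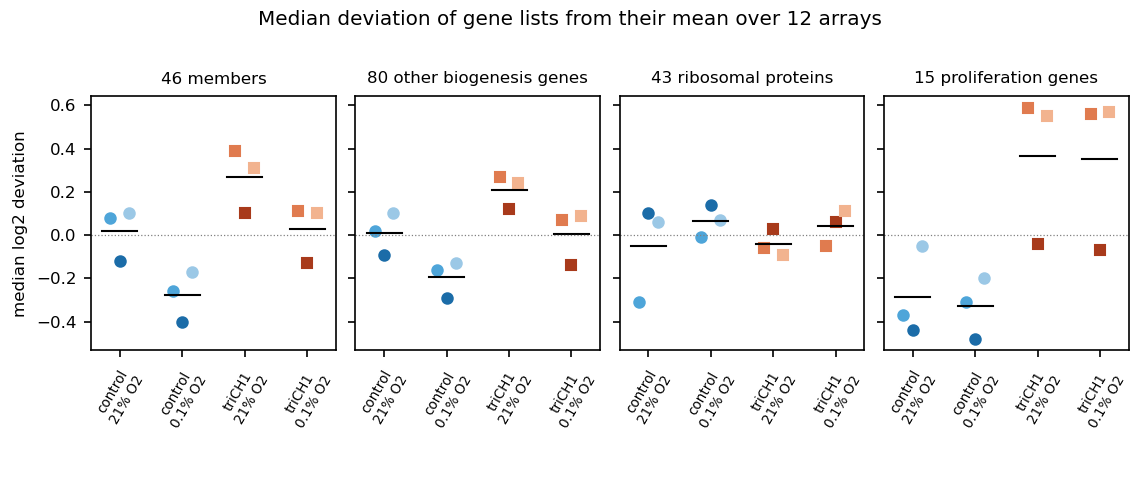
Median log2 deviation of 4 gene lists (46 members, 80 other biogenesis genes, 43 ribosomal proteins and 15 proliferation genes) from their means over the 12 arrays, with 1 point per array (circles control, squares triCH1, colours as the fibroblast lines in the signal plot) and a bar at the mean of each group. The 2 biogenesis panels step down from 21% to 0.1% O2 in both line types, the ribosomal protein panel does not, and in the proliferation panel the triCH1 lines lie above the controls in both conditions.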

How the data were processed

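Expression was measured in 12 cultures of 6 fibroblast lines, 3 lines per type, each at 2 oxygen levels. Deposited values are linear intensity signals from the authors, who used the Statistical algorithm of Affymetrix with a target of 500, per the labels; the mean trimmed by 2% on each side was 500.0 on every array. No alignment or genome build applies. Control probe sets (64) were left out, and the platform annotation gave 34945 probe sets 1 symbol, 932 several and 9160 none. Log2(signal + 20) was tested without further normalization for probe sets whose mean signal reached 100, by limma 3.58.1 under R 4.3.3 (lmFit with 1 mean per group, 8 residual degrees of freedom, eBayes with trended variance), two-sided and Benjamini-Hochberg adjusted within a contrast; the code was tested on simulated data.

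The members and lists were chosen with earlier results of these data known. Arrays are given in full for called members, the 6 lowest and 3 highest in each hypoxia response, the 3 lowest and 3 highest between line types, and 9 chosen by role; other named genes are by their fitted values. Normoxia and hypoxia arrays of a line come from the same cells and so are paired. After removal of group means the pairs correlated at 0.47 (flox1), 0.28 (flox2_1), −0.02 (flox2_2), 0.54 (triCH1flox1), 0.58 (triCH1flox2_1) and 0.35 (triCH1flox2_2). Arrays correlated at 0.93 to 0.976, and 0 pairs were identical. The number of arrays limits the precision. Alternatives changed the pseudocount, filter, normalization, variance model, block, floxed-gene covariate, lines used and probe set choice, and left out each array and line.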

Additional observations from a re-analysis of the deposited data

Results flagged for a closer look

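Ltv1, an assembly factor of the small subunit, was lower in hypoxia in all 3 control lines (−0.43 in flox1, −0.30 in flox2_1 and −0.03 in flox2_2) and higher in sign in all 3 triCH1 lines (0.01, 0.07 and 0.02 in triCH1flox1, triCH1flox2_1 and triCH1flox2_2). The difference of the responses was 0.29 ± 0.25 (SE) and did not pass (limma adjusted p 1.0).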

How the results depend on the processing

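With 3 arrays a group the precision is limited, and the cause of the changes below was not tested. The members called lower numbered, in the control, triCH1 and mean response, 1, 0 and 4 (background 0.0317%, 0.00529% and 0.328%). The background moved with the setting too and is given in the same order. With each line as a fixed replicate block the members called were 3, 2 and 11 (background 0.185%, 0.0635% and 1.26%). A random replicate block gave 3, 2 and 12 (background 0.159%, 0.101% and 1.48%). The floxed gene as a covariate gave 3, 1 and 9 (background 0.0899%, 0.0265% and 0.783%). The lines with floxed Ep300 alone (fewer arrays) gave 0, 0 and 0 (background 0.0212%, 0.00529% and 0.0529%). The mean of all tested probe sets per gene gave 2, 1 and 6 (background 0.0596%, 0.0199% and 0.646% of all genes). A filter at 200 or a robust fit gave 2 in control lines (background 0.0595% and 0.0529%). Leaving out each array or line gave 0 to 2 in control lines (background 0% to 0.0582%) and 1 to 5 in the mean (background 0.0582% to 0.328%). The mean count dropped to 2 without a normoxia or hypoxia array of flox1 or flox2_2 or without the line triCH1flox2_1 or triCH1flox2_2, and to 1 without the line flox1 or flox2_2. Rcl1 in the mean response had an adjusted p of 0.0538 in the Ep300 lines alone. In hypoxia, triCH1 against control, the covariate called 1 gene higher (background 0.138%) and omissions 0 to 1 (background 0% to 0.497%). The median control response was −0.23 with a pseudocount of 100 or quantile normalization, −0.21 with median centring, −0.31 in the Ep300 lines and −0.28 with that mean over probe sets, and −0.36 to −0.19 on omission. Omissions gave medians of −0.31 to −0.14 in triCH1 lines, −0.29 to −0.18 in the mean response −0.02 to 0.19 for the difference, and 0.14 to 0.31 in normoxia and 0.26 to 0.41 in hypoxia between line types.

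Values near 0 changed sign. With the mean over probe sets, Ncl and Pes1 in control lines were −0.02 and −0.06, Pes1 in the mean −0.04, Ddx10 between line types in normoxia −0.07 and Nol9 in hypoxia 0.05. In the Ep300 lines the hypoxia response of Ddx10 in triCH1 lines was −0.02, and Nol9 between line types in hypoxia was 0.08. Npm1 in control lines was −0.01 under quantile normalization, and Nob1 between line types in normoxia −0.02 under median centring. Omissions spanned −0.18 to 0.40 (Ncl), −0.08 to 0.25 (Npm1), −0.09 to 0.17 (Pes1, control), −0.02 to 0.11 (Pes1, mean), −0.07 to 0.40 (Ddx10, triCH1), −0.16 to 0.30 (Ddx10, between line types), −0.14 to 0.08 (Nob1) and −0.21 to 0.10 (Nol9).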
